A study of Mus musculus with 19 samples.

Results

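The SOX transcription factors carry a DNA-binding HMG box and are sorted into groups by the likeness of that box. The 8 genes described here are the 5 of group B (Sox1, Sox2, Sox3, Sox14 and Sox21) and the 3 of group C (Sox4, Sox11 and Sox12), out of 26180 annotated mouse genes. They were chosen by family membership and not by any measured value, but with earlier results of these data known. SOX3 occupancy at these genes was read from 2 SOX3 ChIP-seq peak lists, 1 per replicate. All peaks within 2 kb of an annotated start site (promoter peaks), in the rest of the gene body and elsewhere within 50 kb were taken.

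Sox1, Sox2 and Sox3 form the B1 subgroup, known for keeping neural progenitors undifferentiated, and Sox2 is also a core factor of pluripotent cells. Sox14 and Sox21 form the B2 subgroup, whose proteins act mainly as repressors and can oppose the B1 factors. The group C proteins are activators of progenitors and of differentiating neurons, with largely overlapping roles. Sox3 is the X-linked member, is expressed in undifferentiated spermatogonia, and its product is the protein immunoprecipitated here.

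The study mapped transcription factors and histone marks in the young mouse testis, and its labels name 19 samples. The samples used here were SOX3 ChIP-seq replicates 1 and 2 and SOX3 ChIP-nexus replicates 1 and 2, all from testis at postnatal day 7, with antibodies sc-101155 and AB5772 named together in the labels. According to the study's methods the material was seminiferous tubules pooled from several mice, so germ cells and somatic cells were mixed. The methods give the age of these mice as that day or the day after. The mice were on a C57BL/6J background. The labels give these samples no genotype, and which antibody served which replicate is not given. For SOX3 the methods text names only sc-101155, while the reporting summary lists both antibodies. Libraries of ZBTB16, SALL4, histone marks and input, 15 samples in all, were not analysed here. A peak list holds no expression values, so the labelled tissue was not checked against marker genes, and occupancy could not be assigned to a cell type.

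Replicate 1 listed 58351 ChIP-seq peaks and replicate 2 listed 38832. Each peak has a q score, which is −10log10 of the false discovery rate from the authors' caller with a minimum of 30, and a log2 ratio of ChIP over input. The lists hold no read counts, and the longer list came from the library with fewer reported reads. The absence of a listed peak therefore says only that no region passed the threshold in that library. With 2 replicates and no second group the design gives no test, and the values below are descriptions set beside the same measure over all genes or all peaks.

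Of the 8 SOX genes, 7 had a promoter peak in replicate 1, all but Sox1, and 5 had one in replicate 2, namely Sox3, Sox21, Sox4, Sox11 and Sox12. The same 5 genes made up those with a promoter peak in both replicates. Over all genes the background was 62.7% in replicate 1, 54.7% in replicate 2 and 52.2% in both, so the 5 of 8 genes (62.5%) lay near that background and the count is not a result about the family. The split between the groups was uneven: 3 of 3 group C genes but 2 of 5 group B genes had a promoter peak in both replicates. A q score above 60 in both replicates was met by Sox3, Sox4, Sox11 and Sox12, beside 35.2% of all genes.

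**Figure D1:**
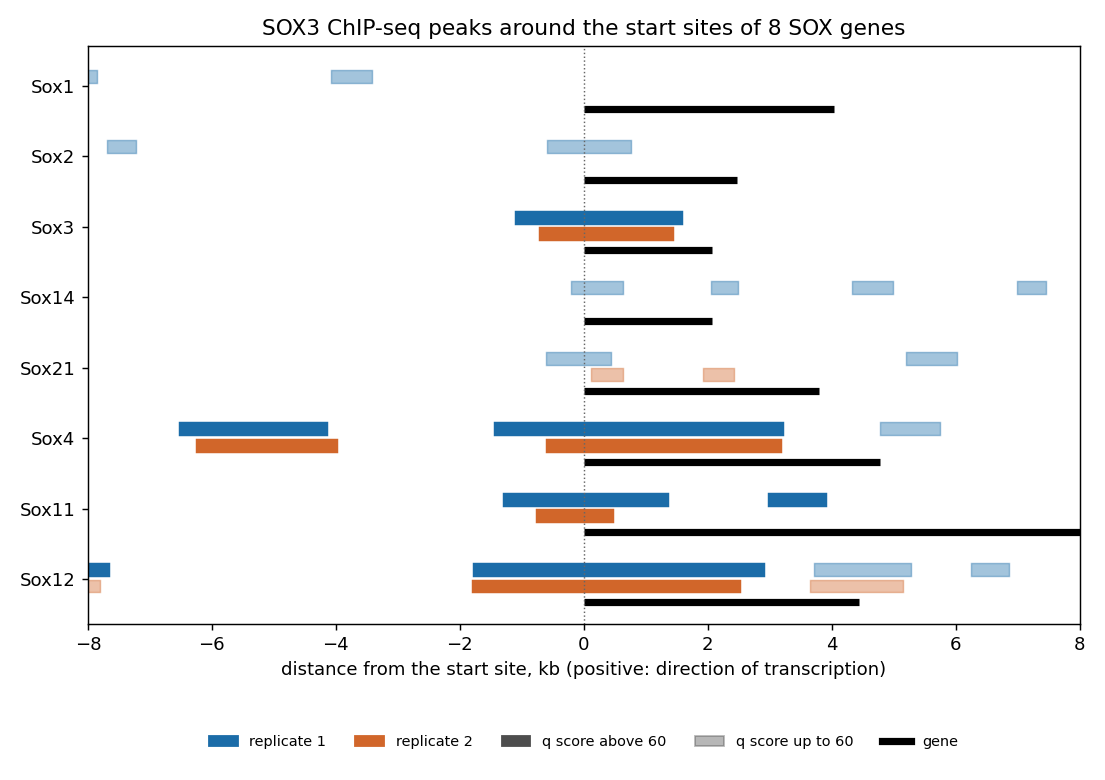
Peaks within 8 kb of the start site of each gene, at distance in kb along the x axis, with the replicate 1 peak drawn above the replicate 2 peak and the gene as a black bar; dark peaks have a q score above 60 and pale ones a q score up to 60. The peaks of Sox12 and Sox4 start upstream and run over most of the gene in both replicates. Sox2 and Sox14 have one at the start site in replicate 1 alone. Sox1 has none there, only pale replicate 1 peaks farther upstream.

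All 8 start sites lie in CpG-rich DNA (an observed over expected CpG ratio of at least 0.6 and at least 50% GC in the 500 bp each side), and all 8 genes have 1 exon. Among the 11505 genes with a CpG-rich promoter, 96.4% had a promoter peak in replicate 1, 90.8% in replicate 2 and 89.9% in both. Sox1, Sox2 and Sox14 were thus among the few genes of this promoter class without a peak in both lists. Among the 306 protein-coding genes of 1 exon with a CpG-rich promoter the shares were 91.2%, 81.7% and 81.4%. To show how different the sequences just before these start sites are, 4 are printed below from RefSeq promoters (GRCm38.p6, the assembly of mm10), as the 250 bases that end just before the start, in the direction of transcription, with every CG in capitals. Sox12 had the strongest promoter peak of the 8 genes, Sox4 the next, Sox2 a peak in 1 replicate and Sox1 none.
Sox12 (chr2:152398047-152398296, minus strand): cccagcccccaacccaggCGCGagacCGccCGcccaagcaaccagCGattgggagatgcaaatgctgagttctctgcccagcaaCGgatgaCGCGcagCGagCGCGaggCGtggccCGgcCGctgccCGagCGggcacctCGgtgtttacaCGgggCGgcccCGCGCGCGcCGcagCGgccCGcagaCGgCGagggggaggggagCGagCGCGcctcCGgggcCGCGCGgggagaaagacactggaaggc
Sox4 (chr13:28953700-28953949, minus strand): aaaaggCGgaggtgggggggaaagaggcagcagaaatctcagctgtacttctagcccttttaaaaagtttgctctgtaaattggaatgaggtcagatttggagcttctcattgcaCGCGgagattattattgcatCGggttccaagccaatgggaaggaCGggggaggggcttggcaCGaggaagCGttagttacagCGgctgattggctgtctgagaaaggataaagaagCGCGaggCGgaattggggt
Sox2 (chr3:34649745-34649994, plus strand): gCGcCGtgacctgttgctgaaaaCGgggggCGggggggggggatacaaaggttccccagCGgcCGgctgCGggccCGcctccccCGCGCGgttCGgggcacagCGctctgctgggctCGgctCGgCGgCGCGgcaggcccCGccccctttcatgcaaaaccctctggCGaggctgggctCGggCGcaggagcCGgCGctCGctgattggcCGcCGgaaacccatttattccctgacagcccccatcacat
Sox1 (chr8:12395269-12395518, plus strand): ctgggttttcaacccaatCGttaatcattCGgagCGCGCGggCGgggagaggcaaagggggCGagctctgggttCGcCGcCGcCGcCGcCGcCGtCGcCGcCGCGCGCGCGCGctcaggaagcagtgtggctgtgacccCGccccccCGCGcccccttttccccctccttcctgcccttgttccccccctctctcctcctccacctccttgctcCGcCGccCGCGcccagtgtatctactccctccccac

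RefSeq promoters were matched for 7 of the 8 genes, all but Sox3. The 250 bases before the start held 35 CG in Sox12, 29 in Sox1, 27 in Sox2, 23 in Sox14, 17 each in Sox21 and Sox11, and 11 in Sox4, against a median of 6 over 32851 promoters. Of these 7 genes, Sox12 had the most CG and the highest q score, and Sox1 had the second most and no promoter peak. Sox4 had the fewest and the second highest q score. Whether CG number this close to the start bears on the peaks was not tested. Over the wider 2 kb each side, the CpG number was 322 in Sox3, 315 in Sox12, 309 in Sox1, 293 in Sox11, 251 in Sox2, 245 in Sox4, 244 in Sox21 and 170 in Sox14. These lay between the 89.6th percentile of all genes, for Sox14, and the 99.8th, for Sox3 and Sox12.

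Sox12, a group C activator, had the strongest promoter peaks of the family. Its q scores were 755 in replicate 1 and 349 in replicate 2, with log2 ratios of 5.60 and 3.95, and the mean q score was 552 ± 287 (SD, n = 2). In each list the peak stood at the 99.8th percentile of all peaks by q score. Among the strongest promoter peaks of all genes that had one, it stood at the 99.0th and 99.2nd percentiles. The peaks were 4695 and 4325 bp wide, from 1793 bp before to 2901 bp after the start site in replicate 1 and from 1809 bp before to 2515 bp after it in replicate 2. Both covered the whole coding sequence, and with a further peak at the 3′ end of the gene (q scores 39.2 and 48.8) they covered 81.8% and 74.5% of the gene, which lies at chr2:152393611-152398046.

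Sox4 (chr13:28948919-28953699), also a group C activator, came next. Its promoter peak scored 511 and 213 in q, the log2 ratio was 4.35 and 3.27, and the mean q score was 362 ± 211 (SD, n = 2). It ran from 1444 bp before to 3218 bp after the start site in replicate 1 and from 607 bp before to 3182 bp after it in replicate 2, again over the whole coding sequence. Among genes with a promoter peak it stood at the 95.4th and 95.6th percentiles by q score. A separate upstream region was also listed in both replicates, from 6530 to 4136 bp before the start site with a q score of 157 in replicate 1, and from 6256 to 3979 bp before it with a q score of 80.1 in replicate 2.

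Sox11 (chr12:27334268-27342718), the third group C gene, had a weaker promoter peak. The q scores were 80.4 and 66.3 and the log2 ratios 3.32 and 3.66, with a mean q score of 73.3 ± 9.98 (SD, n = 2). The peak was 2663 bp wide in replicate 1 and covered 88.9% of the coding sequence. In replicate 2 it was 1242 bp wide and covered 13.3%. Unlike Sox12 and Sox4, it stood below the median of genes with a promoter peak, at the 27.0th and 40.0th percentiles. A second peak in the gene body, 2965 to 3913 bp after the start site, had a q score of 86.3 in replicate 1 and no counterpart in replicate 2.

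Sox3 (chrX:60891366-60893430), the gene of the immunoprecipitated factor, had a promoter peak over its own start site in both replicates. The q scores were 121 and 63.4, with a mean of 92.0 ± 40.5 (SD, n = 2), and the log2 ratios were 4.01 and 4.86, with a mean of 4.44 ± 0.60 (SD, n = 2). Among all peaks of its list it stood at the 84.7th and 78.5th percentiles by q score and at the 89.9th and 99.8th by log2 ratio. Among the genes with a promoter peak it stood at the 38.7th and 37.9th percentiles by q score. It was 2689 bp wide in replicate 1, from 1103 bp before to 1585 bp after the start site, and 2164 bp wide in replicate 2, from 717 bp before to 1446 bp after it. Both peaks covered the whole coding sequence, and each was the only peak within 50 kb of the start site in its list. The start site of Gm38438, a long noncoding RNA transcribed in the opposite direction, lies 223 bp upstream and under the same peaks, so occupancy of the 2 promoters could not be told apart.

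The X chromosome is a separate background for Sox3, because its genes had fewer promoter peaks: 40.7% of its 1126 genes in replicate 1, 29.4% in replicate 2 and 28.1% in both. Among X genes with a CpG-rich promoter the shares were 90.1%, 76.2% and 75.5%. The q score of Sox3 lay above the median of X genes with a promoter peak, which was 107 in replicate 1 and 54.2 in replicate 2. That median was not limited to X genes with a CpG-rich promoter, the class to which Sox3 belongs. A higher q score was found in 189 of 458 such genes in replicate 1 and 127 of 331 in replicate 2. By log2 ratio 194 genes were higher in replicate 1 but 2 in replicate 2, and wider promoter peaks were found at 21 and 9 genes. By the summed absolute difference in log10 q score and log2 ratio over the 2 replicates, the X genes most like Sox3 were Gm38438 (0, since it shares the peaks), Ints6l (0.73), and then Gm15246 and Hccs, which share a peak (1.04 each).

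At Sox2 (chr3:34649995-34652461) the promoter peak was confined to replicate 1, where its q score was 53.0 and its log2 ratio 2.90, from 590 bp before to 763 bp after the start site. It stood at the 16.9th percentile of genes with a promoter peak. In replicate 2 the nearest peak began 12786 bp after the start site and had a q score of 41.9, and a replicate 1 peak that began 14059 bp after the start site (q score 55.6) overlapped it. The remaining peaks within 50 kb, 4 in replicate 1 and 2 in replicate 2, had no overlap with a peak of the other replicate. Sox2 lies inside the long noncoding RNA gene Sox2ot, whose start site is 89614 bp upstream and had no promoter peak in either list.

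Sox1 (chr8:12395519-12399555) had no promoter peak. The nearest peak ended 3418 bp before the start site in replicate 1 (q score 35.7) and 26926 bp before it in replicate 2 (q score 31.2). A second peak in replicate 1 lay within 2 kb of a start site of Sox1ot, a long noncoding RNA gene that overlaps Sox1, and had a q score of 34.6.

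The B2 genes Sox21 and Sox14 had low q scores or no promoter peak, as did Sox1 and Sox2 of the B1 subgroup. Sox21 (chr14:118233233-118237030) had a peak with a q score of 55.3 and a log2 ratio of 3.45 in replicate 1, from 612 bp before to 439 bp after the start site. In replicate 2 it had 2 short peaks, from 120 to 625 bp and from 1925 to 2422 bp after the start site, both with a q score of 31.5 and a log2 ratio of 2.48. The mean q score was 43.4 ± 16.9 (SD, n = 2). The replicate 2 pair of values is shared by 989 peaks of the replicate 2 list, and it stood at the 2.63rd percentile of genes with a promoter peak. Gm4675, a long noncoding RNA read from the opposite strand, starts 798 bp inside Sox21, so these peaks also count for it.

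At Sox14 (chr9:99874106-99876170) replicate 1 alone had a promoter peak, whose q score was 40.3 and log2 ratio 2.36, from 212 bp before to 631 bp after the start site. Another peak at the 3′ end began 2050 bp after the start site (q score 31.1), just beyond the promoter limit, while the farther replicate 2 peak of Sox21, at 1925 bp, was just inside it. In replicate 2 no peak lay within 50 kb of Sox14, and the nearest was 129852 bp away.

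**Figure D2:**
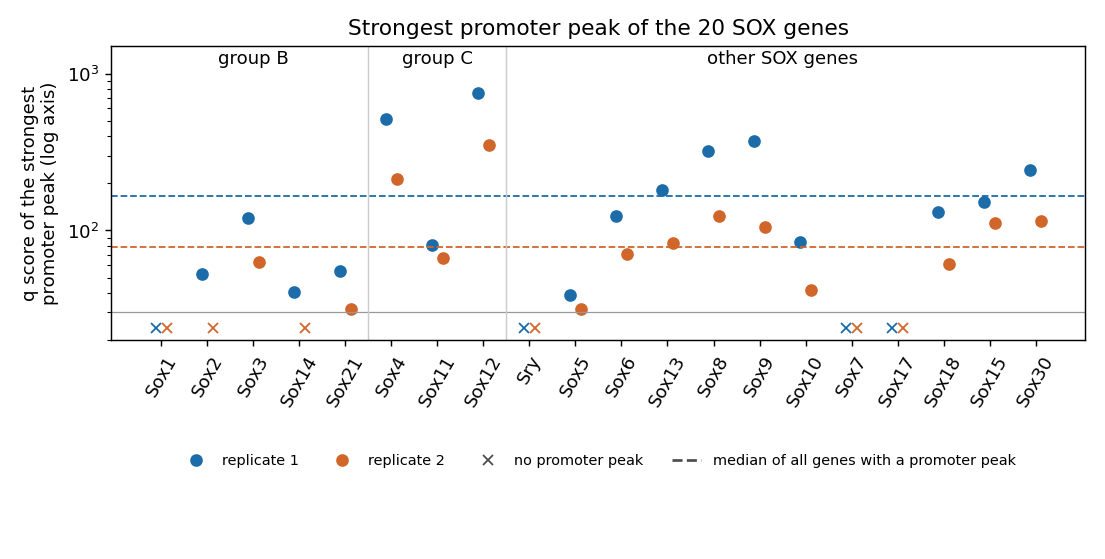
Strongest promoter peak of each of the 20 SOX genes in replicate 1 (blue) and replicate 2 (orange), as q score on a log axis; crosses mark genes with no promoter peak, dashed lines the median over all genes with a promoter peak (165 and 78.8) and the grey line the minimum of 30. Sox12 and Sox4 lie above every other SOX gene in both replicates, and all group B points lie under the median of their replicate.

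The group medians, with a gene without a peak set to the lowest q score of its list, were 53.0 for group B and 511 for group C in replicate 1, and 30.03 and 213 in replicate 2. The difference was 458 in replicate 1 and 183 in replicate 2, a mean of 321 ± 195 (SD, n = 2). The groups overlapped in replicate 1, where Sox3 (121) lay above Sox11 (80.4). In replicate 2 they did not overlap but came close, at 63.4 for Sox3 and 66.3 for Sox11. In replicate 2 the group B median is that assigned minimum, since 3 of its 5 genes had no peak. Among the genes with a promoter peak the median q scores were 54.2 for group B and 511 for group C in replicate 1, and 47.4 and 213 in replicate 2. The log2 ratios did not show the same gap in both replicates: their medians over the genes with a peak were 3.17 for group B and 4.35 for group C in replicate 1, and 3.67 and 3.66 in replicate 2. Sox3 had the highest log2 ratio of the 8 genes in replicate 2. These are 5 and 3 genes of 1 family and not replicates, so no p-value is given.

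Replicate 1 gave the higher q score at each of the 5 genes with peaks in both, by 1.21 times at Sox11, 1.76 at Sox21, 1.90 at Sox3, 2.16 at Sox12 and 2.40 at Sox4. Over the 13665 genes with a promoter peak in both lists the median ratio was 2.29 (quartiles 1.74 and 2.88). The ratios of Sox21, Sox3, Sox12 and Sox4 lay between those quartiles, and that of Sox11 lay below them. The log2 ratio was also higher in replicate 1 at Sox21, Sox12 and Sox4, but it was higher in replicate 2 at Sox3 and Sox11. Its median over all genes with a promoter peak was 3.67 in replicate 1 and 2.72 in replicate 2.

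**Figure D3:**
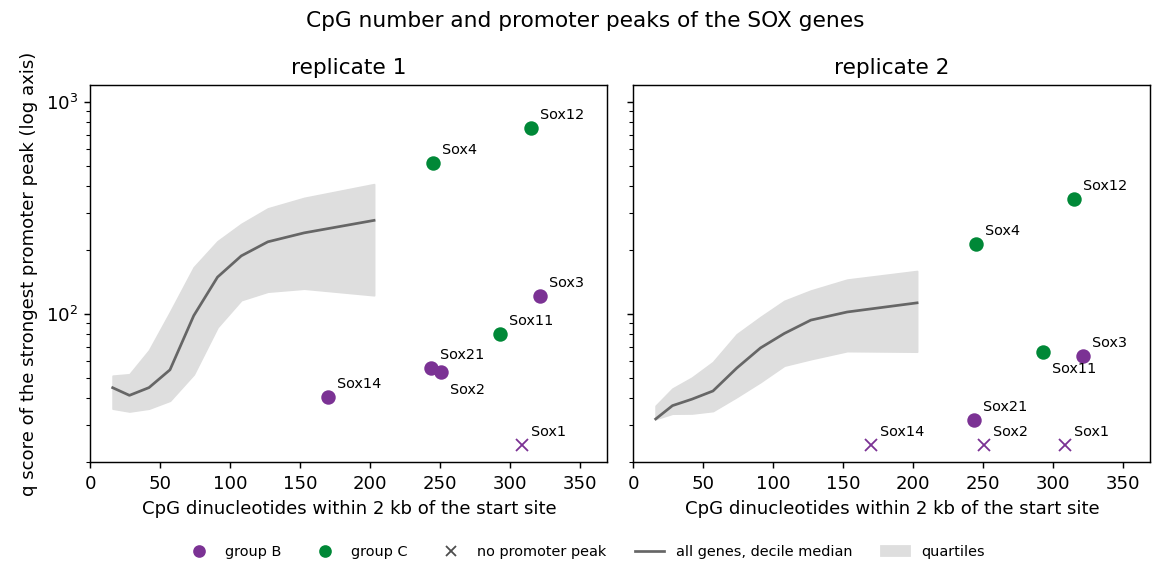
Number of CpG dinucleotides within 2 kb of the start site against the q score of the strongest promoter peak (log axis), for replicate 1 and replicate 2; the grey line and band give the median and quartiles over all genes with a promoter peak in each of 10 equal groups by CpG number, and crosses mark SOX genes with no promoter peak. Sox4 and Sox12 lie above the band of the CpG-richest group in both replicates, and Sox3 and Sox21 lie below it in both. Sox2 and Sox11 lie below it in replicate 1, and Sox1 has no promoter peak.

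Genes were split into 10 equal groups by CpG number within 2 kb. In the CpG-poorest group 0.191% had a promoter peak in both replicates, against 89.6% in the CpG-richest (172 to 430 CpG). The median q score of the genes with a promoter peak was 44.8 in replicate 1 and 31.9 in replicate 2 in the poorest group. In the richest group it was 276 in replicate 1 and 113 in replicate 2, with lower quartiles of 122 and 66.3. All of the SOX genes here but Sox14 belong to that group. Sox12 and Sox4 exceeded its upper quartile (408 and 159) in both replicates. Sox3 lay below the lower quartile of this group, which takes in genes of all chromosomes, in both replicates, at 121 and 63.4. Sox21 lay below it in both, Sox2 in the 1 replicate where it had a peak, and Sox11 at 80.4 in replicate 1 and at 66.3, equal to it, in replicate 2.

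Within 50 kb of the start sites there were 33 peaks in replicate 1 and 22 in replicate 2. Sox12 held 12 and 8 of them, Sox2 6 and 3, Sox4 4 and 4, Sox14 4 and 0, Sox21 2 and 3, Sox11 2 and 2, Sox1 2 and 1, and Sox3 1 and 1. Over all annotated genes, with or without a promoter peak, the median was 4 and 3 peaks in that window. Sox12 was the only one of the 8 to exceed that in both replicates, at the 80.9th and 80.6th percentiles of all genes. Outside promoters and gene bodies the window held 23 peaks in replicate 1 and 15 in replicate 2, of which 5 and 4 had a q score above 60. Only 1 of these in each replicate, the upstream region of Sox4, was not near Sox12. The farthest peak counted began 48599 bp after the start site of Sox2 in replicate 2 (q score 40.8), and the nearest left out lay 50325 bp from that of Sox12 in replicate 2 (q score 31.2).

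**Figure D4:**
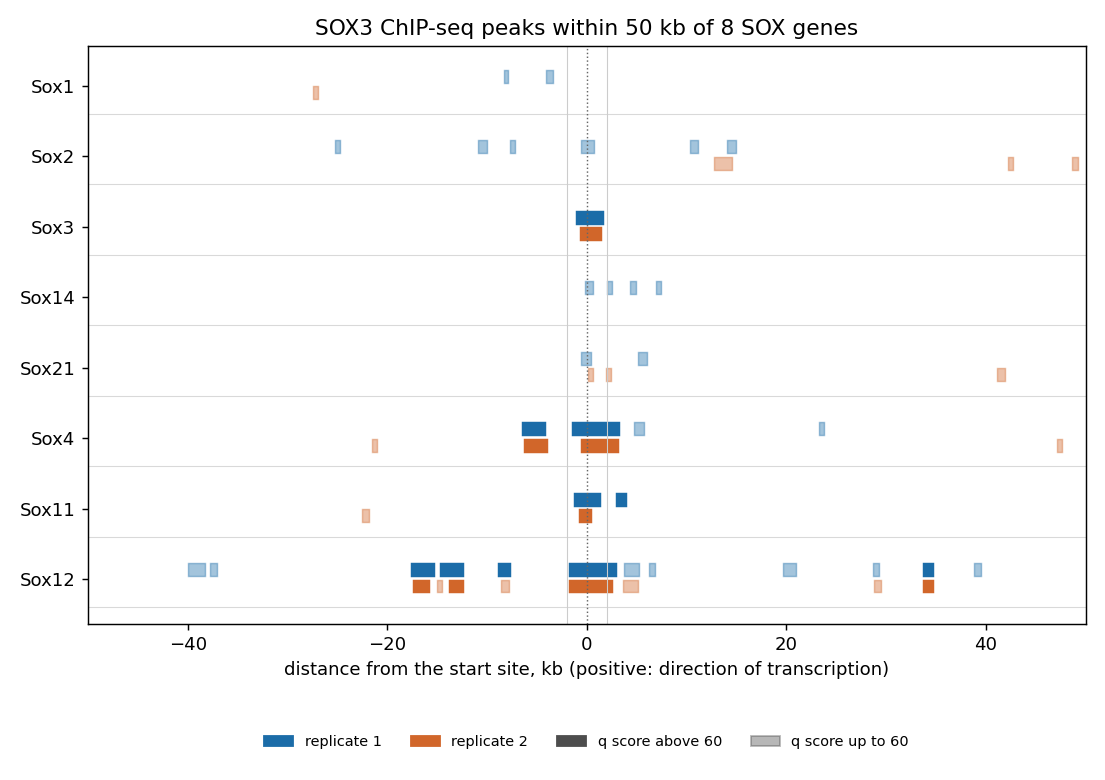
Peaks within 50 kb of each start site, at distance in kb along the x axis, with replicate 1 (blue) above replicate 2 (orange); dark peaks have a q score above 60, pale ones up to 60, and the grey verticals mark 2 kb each side. Sox12 has peaks along much of the window, 12 in replicate 1 and 8 in replicate 2, whereas Sox3 has 1 in each.

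The strongest peak near Sox12 other than its own lay 15303 to 17628 bp upstream in replicate 1 (q score 305) and 15841 to 17450 bp upstream in replicate 2 (q score 205). Both peaks cover a start site of Zcchc3, 16998 bp upstream of Sox12. A start site of 6820408C15Rik, 17541 bp upstream, is covered by the replicate 1 peak and lies just beyond the replicate 2 peak. Other peaks found in both replicates lay about 13 kb upstream (q scores 139 and 80.0), about 8 kb upstream (113 and 44.2), and beyond the gene, 28730 bp (q score 40.2) and 28784 bp (37.6) and then 33693 bp (83.3) and 33705 bp (71.3) after the start site. A peak near the start of Nrsn2, 21441 bp downstream, was listed in replicate 1 only (q score 41.4). Across all 8 genes, 8 of the 33 peaks in replicate 1 and 5 of the 22 in replicate 2 also lay within 2 kb of a start site of another gene. The same share over all peaks is not given here, so these counts describe positions only and are not a result about these genes.

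A peak was counted as found in the other replicate when 1 peak there covered at least 50% of its length. This held for 11 of the 33 peaks in replicate 1 (33.3%) and 12 of the 22 in replicate 2 (54.5%), beside 25.1% and 48.4% of all peaks. With a q score above 60 it held for 8 of 10 and 8 of 8, beside 67.0% and 96.8% of all such peaks. With a q score up to 60 it held for 3 of 23 (13.04%) and 4 of 14 (28.6%), beside 9.55% and 33.8%. Sox12 supplied 7 of the 11 found peaks in replicate 1 and 7 of the 12 in replicate 2. Of the 33 and 22 peaks, 20 and 11 carried a pair of q score and log2 ratio that at least 100 peaks of the list share, as did 70.7% and 62.5% of all peaks, and peaks that share such a pair cannot be ranked against each other.

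Group B and C proteins bind a short DNA word, and the occupied regions were searched for 8 forms of it on both strands. The forms that end in AAG were AACAAAG with the variant starts in ATCAAAG, then also TACAAAG and, as the last of these, TTCAAAG. The forms that end in ATG were AACAATG with the variant starts in ATCAATG, then also TACAATG and, as the last of these, TTCAATG. The promoter peaks of these genes held 12 matches in 18.0 kb in replicate 1 (0.668 per kb) and 8 in 12.5 kb in replicate 2 (0.639 per kb). All peaks held 0.980 and 0.910 per kb, and the strongest promoter peak of each gene 0.815 and 0.718 per kb. The 1 kb flanks of the promoter peaks of these genes held 1.36 and 1 per kb, beside flanks of 1.29 and 1.30 per kb over all peaks. None of the matches in the promoter peaks fell in the central 100 bp. These densities were not adjusted for base composition, and the peaks are richer in GC (medians of 63.7% and 68.5%) than all peaks (51.8% and 52.5%), while the words are rich in A and T. The part of base composition in these densities was not tested.

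The promoter peaks of Sox3 and Sox11 held no match in either replicate. Of all peaks of 2000 to 2800 bp, 83.9% in replicate 1 and 79.2% in replicate 2 held at least 1, a width class that takes in both Sox3 peaks and the replicate 1 peak of Sox11 but not its replicate 2 peak of 1242 bp. The gene body peak of Sox11 in replicate 1 held 1 match, in its central 100 bp. The peaks over Sox4 held 3 matches and those over Sox12 held 5, the same sites in both replicates, where 95.5% and 94.0% of all peaks of 3500 to 5000 bp held at least 1. The 5 sites of Sox12 are printed because they lie under the strongest peaks of the family, with 1 of Sox4 and those of Sox2 and Sox14 upstream of the start site for comparison. Sox21 also has an upstream word, TTCAAAG, 334 bp before the start site in its replicate 1 promoter peak, which is not printed. Each printed site is given 5′ to 3′ on the strand of the match, as 21 bases of GRCm38.p6 with the matched word in capitals. The distance is from the start site of the gene to the middle of the word.
Sox12, 1682 bp upstream (chr2:152399718-152399738, minus strand): acgacatTTCAATGgacacac
Sox12, 1387 bp upstream (chr2:152399423-152399443, minus strand): tccactgAACAAAGaaccacc
Sox12, 373 bp upstream (chr2:152398409-152398429, plus strand): acatttaTTCAATGacacctg
Sox12, 98 bp downstream, 5′ UTR (chr2:152397938-152397958, minus strand): cctgcaaAACAATGcgcggcg
Sox12, 1933 bp downstream, 3′ UTR (chr2:152396103-152396123, plus strand): cttcgggATCAAAGgatttct
Sox4, 589 bp upstream (chr13:28954278-28954298, plus strand): ataataaATCAATGgatattg
Sox2, 457 bp upstream (chr3:34649528-34649548, plus strand): gcgcagaAACAATGgcacacc
Sox2, 204 bp upstream (chr3:34649781-34649801, plus strand): ggggggaTACAAAGgttcccc
Sox14, 29 bp upstream (chr9:99876189-99876209, plus strand): ggcgaagTTCAAAGgcgaggt

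The Sox2 word at 204 bp and the Sox14 word at 29 bp lie within the 250 bases before the start, and the other 5 matched promoters hold none there. Over all RefSeq promoters 21.8% hold at least 1 of the words in those 250 bases. The genes with the strongest peaks, Sox12 and Sox4, were among those without a match in these 250 bases, although Sox12 has one 98 bp after the start site. A match is a description of the letters and not a binding site.

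ChIP-nexus, in which an exonuclease trims the bound DNA toward the protein, gave much shorter lists of 110 and 18 mouse peaks. The study reports that unique reads were a very small part of all reads in these libraries. No listed ChIP-nexus peak lay within 50 kb of any of the 8 genes, which with lists this short says little about them. The nearest was 3512 kb from Sox14, in replicate 1.

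Of the other 12 SOX genes, 9 had a promoter peak in both replicates (75%), beside 52.2% of all genes. With 12 genes of 1 family that difference was not tested. The 9 were Sox5, Sox6 and Sox13 of group D, Sox8, Sox9 and Sox10 of group E, Sox18 of group F, Sox15 and Sox30. Sry, the Y-linked sex-determining gene, and Sox7 and Sox17 of group F had none in either replicate. The median of the strongest q score among those with a peak was 153 in replicate 1 and 83.4 in replicate 2, beside 80.4 and 66.3 among the group B and C genes with a peak. The highest values among the 12 were those of Sox9 in replicate 1 (373) and Sox8 in replicate 2 (124), below both Sox4 and Sox12. Of these 12 genes, 7 have a CpG-rich promoter, against all 8 of groups B and C.

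SOX proteins of these groups act on DNA with POU and PAX partners, so 8 genes of such factors and of the pluripotency factor NANOG were listed. Pou2f1, Pou3f1, Pou3f3 and Pax6 had a promoter peak in both replicates. Pou5f1, which encodes the partner of SOX2 in pluripotent cells, had one in replicate 1 only, and Pou3f2, Pou3f4 and Nanog had none in either. The highest q scores were those of Pou2f1 (336 and 140). The 4 of 8 genes with a peak in both lists (50%) were near the background of 52.2%.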

How the data were processed

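SOX3 was profiled by ChIP-seq and ChIP-nexus in testis labelled as postnatal day 7, with 2 libraries each. Per the study's methods and labels, the authors aligned reads to mm10 with Novoalign, placed reads that fit several sites at random, removed duplicates with Picard and called ChIP-seq peaks in each replicate with USeq. The ChIP-seq lists came without a header, and their columns were read from the caller's layout as a p score, a q score (−10log10 of the false discovery rate, minimum 30) and a log2 ratio. The authors computed the log2 ratio of ChIP over input, per peak, before the lists were deposited. The deposited ChIP-nexus lists were made by the authors with MACS2 2.1.1 and give a score, fold enrichment, −log10 p-values and q-values; only positions were used. The methods describe removing blacklisted regions from peaks with BEDTools, without saying whether the lists per replicate had passed that step.

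Start sites were those of 45756 RefSeq curated transcripts of GRCm38.p6. Peaks were assigned with Python 3.11.15, pandas 2.3.3 and numpy 2.4.6, and overlaps were tested on simulated data and checked against bedtools 2.31.1. Percentiles are within 1 list. Means are over 2 replicates. The study describes them as independent biological replicates. CpG-rich and other cutoffs, the family lists and the 3 X genes most like Sox3 followed written rules, but the genes and lists were chosen with earlier results of these data known. A planned comparison of the protein sequences was not run. Alternatives covered the q score minimum, both windows, the annotation, the overlap, the motif, the ranking and leaving out each replicate. The other 15 samples were not analysed here.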

Additional observations from a re-analysis of the deposited data

How the results depend on the processing

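The count of 5 genes with a promoter peak in both replicates was also 5 with a promoter window of 1 kb or 5 kb, with GENCODE M21 and with all RefSeq transcripts, and was 4 with a q score above 60. That minimum left 4 of the 7 genes in replicate 1 and cut the mean number of peaks within 50 kb from 27.5 to 9. Applied to both lists, it raised the mean share found in the other replicate from 43.9% to 85% (70% in replicate 1 and 100% in replicate 2). The shares given above for a q score above 60 were counted against the full list of the other replicate. A window of 100 kb gave a mean of 45.5 peaks. Motif density in the peaks within 50 kb, 0.598 per kb, became 0.262 with AACAAT and 0.758 in the central 100 bp, which is the mean of 1.52 in replicate 1 (5 matches in 33 peaks) and 0 in replicate 2. The group C minus group B difference was 2.05 by log2 ratio with genes without a peak set to the lowest value of their list, and 0.59 over the genes with a peak, an alternative chosen after seeing the data. The same restriction gave 311 in q score, against 321. Using 1 replicate alone gave 5 to 7 genes, 14310 to 16417 of all genes, 22 to 33 peaks, a share of 33.3% to 54.5% and a group difference of 183 to 458 in q score. Among these summary values, 34 alternatives moved less than the limit set for them and 8 moved more. Counts, shares and densities could not change sign, so only the group difference could reverse, and its mean did not. The tally takes the log2 difference of 0.59 as a mean of 1.18 in replicate 1 and -0.005 in replicate 2. It also sets log2 differences beside q score differences in other units, so it is no measure of robustness. Of the 14 alternative percentiles of single genes, ranked by log2 ratio or among genes with a promoter peak, 12 moved more than the limit, such as that of Sox3 from 81.6 to 38.3 and that of Sox2 from 67.8 to 16.9 among genes with a promoter peak. No paired analysis was possible because the results come from no test. How depth bears on the weak peaks was not tested.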
